A study of Mus musculus with 6 samples.

Results

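Metallothioneins are small cysteine-rich proteins that bind zinc and copper in the cytosol, and zinc transporters move the metal across membranes. The 10 genes described here were taken from the deposited table by gene name: the metallothioneins Mt1 and Mt2, 4 zinc exporters of the ZnT (Slc30a) family and 4 zinc importers of the ZIP (Slc39a) family. They are 10 of 35275 genes in the table and 10 of the 14383 that passed the filter on low values, so every one of them was tested. The tissue was the epididymal fat pad, a visceral depot next to the testis, taken from male mice of the C57BL/6 strain. TfrcAKO samples (3) came from mice known as an adipocyte deletion of Tfrc, the receptor that takes up iron-loaded transferrin. The abbreviation is not explained in the labels, which name no Cre driver either. Tfrcfl/fl samples (3), the controls, came from mice with loxP sites in both copies of Tfrc. All mice, in both groups, were put on 60% high fat diet when 2 months old, were fed it for 10 weeks and had reached 4.5 months when the fat was taken. Whether each sample comes from its own animal is not stated, and the p-values below reflect only how these samples spread.

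Cells keep free zinc very low. ZnT proteins take zinc out of the cytosol, into vesicles, organelles or the outside, while ZIP proteins bring it in. When cytosolic zinc rises, the transcription factor Mtf1 binds metal response elements and switches on Mt1, Mt2 and Slc30a1, which store or expel the excess. Metallothionein genes are also induced by glucocorticoids, inflammatory cytokines and oxidants. Slc39a8 and Slc39a14 carry iron that is not bound to transferrin as well as zinc and manganese, so they form an iron entry route that does not need Tfrc.

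The libraries held between 25252839 and 30650624 reads assigned to genes, and the 10 genes had between 614 and 8076 reads each per sample. Tfrc was at 7.10, 8.27 and 9.50 FPKM (fragments per kilobase of gene per 1000000 reads) in TfrcAKO replicates 1, 2 and 3, against 11.1, 13.2 and 11.9 FPKM in Tfrcfl/fl replicates 1, 2 and 3. A value for the whole gene also counts exons outside a deleted part and cells other than adipocytes. The groups differed widely in the makeup of their RNA. Of 14 macrophage markers 13 were called lower in TfrcAKO tissue, with summed levels of 1506 to 3385 FPKM in TfrcAKO and 6175 to 7130 FPKM in Tfrcfl/fl samples. Of 14 mature adipocyte markers 13 were called higher, with sums of 21623 to 29161 FPKM in TfrcAKO and 10085 to 13318 FPKM in Tfrcfl/fl samples. No marker of either list was at 0 in all samples. TfrcAKO replicate 3 had the lowest macrophage and the highest adipocyte sum. Higher were 8 of 8 endothelial markers (sums of 245 to 367 FPKM in TfrcAKO, 114 to 133 FPKM in Tfrcfl/fl), 4 of 6 pericyte and smooth muscle markers (187 to 238 FPKM in TfrcAKO, 104 to 116 FPKM in Tfrcfl/fl) and 5 of 6 mesothelial markers (103 to 125 FPKM in TfrcAKO, 66.5 to 69.5 FPKM in Tfrcfl/fl). Lower were 3 of 4 mast cell markers (27.0 to 53.6 FPKM in TfrcAKO, 126 to 270 FPKM in Tfrcfl/fl). Of 3 tested neutrophil markers 2 were called lower. The neutrophil sums overlapped (19.5 to 40.1 FPKM in TfrcAKO, 29.0 to 30.8 FPKM in Tfrcfl/fl) and came mostly from S100a8, the tested marker that was not called. Of 8 fibroblast and progenitor markers 2 were called lower (1125 to 1921 FPKM in TfrcAKO, 2252 to 2543 FPKM in Tfrcfl/fl). Among all tested genes 21.9% were called higher and 21.6% lower, so 2 of 8 is near the general share. None of 6 T cell markers (3.21 to 8.39 FPKM in TfrcAKO, 7.85 to 11.6 FPKM in Tfrcfl/fl) or 4 B cell markers (3.97 to 11.8 FPKM in TfrcAKO, 7.11 to 17.4 FPKM in Tfrcfl/fl) was called by limma; the fold changes of all 10 were negative, between −0.95 and −0.12. Epididymis and testis markers summed to 4.90 to 7.59 FPKM in TfrcAKO and 2.28 to 4.63 FPKM in Tfrcfl/fl samples, most of it from Insl3. Insl3 was the only marker of that list tested, its groups overlapped and it was not called (limma adjusted p = 0.149). No other marker of the list exceeded 1.13 FPKM, and Lcn5, Spag11a and Tnp1 were at 0 in all. The part that these shifts have in the differences below was not tested, and in whole tissue fewer cells of a type and less RNA per cell cannot be told apart.

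Across the 10 genes the genotype differences were small. At an adjusted p under 0.05 in limma 5 of the 10 genes differed, 4 lower and 1 higher in TfrcAKO tissue. The share called among all 14383 tested genes was 43.5%, with 21.9% higher and 21.6% lower, so 5 of 10 is near the share among all genes. The groups did not overlap for 7 of the 10 genes, 5 lower and 2 higher, against 60.1% of all tested genes (31.0% lower and 29.1% higher). The median size of the log2 fold change, regardless of direction, was 0.27 for the 10 genes and 0.31 over all tested genes. Only 3 of the 10, Slc30a7, Mt1 and Slc30a1, moved by more than that general median, and none reached 0.61, the 75th percentile of all tested genes. The median signed change was −0.25 for the 10 genes and −0.03 over all tested genes.

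**Figure D1:**
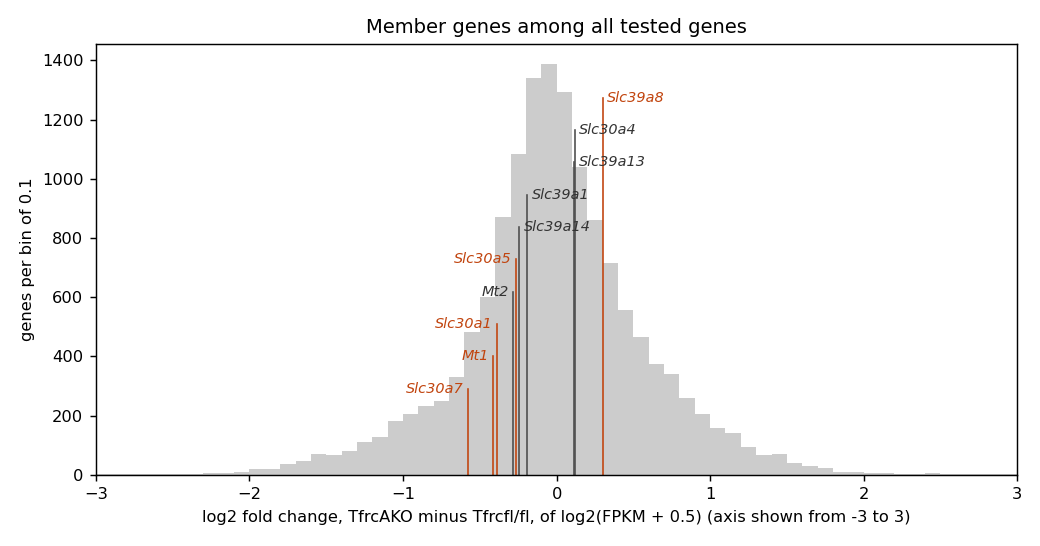
Log2 fold changes (TfrcAKO minus Tfrcfl/fl, on log2(FPKM + 0.5)) of all 14383 tested genes as a histogram in bins of 0.1, with the 10 genes marked by lines whose heights carry no meaning. Orange lines are genes with an adjusted p under 0.05; all 10 lie in the middle of the distribution, between −0.57 and 0.30, and 9 tested genes lie beyond the axis limits of 3.

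Mt1 and Mt2 were by far the most abundant of the 10 genes. They are neighbours on mm10 chromosome 8, Mt2 from 94172618 to 94173567 and Mt1 from 94179089 to 94180325, both on the plus strand with 5521 bases between them. Windows around their annotated starts are printed to show matches to the metal response element, the sequence through which zinc acts on this pair and on Slc30a1. Each window runs from 250 bases before the annotated start to 50 after it, from RefSeq on GRCm38.p6, plus strand, and capitals mark matches to the core of the element, searched as TGCACNC and TGCGCNC on both strands with overlapping matches allowed.
Mt1 chr8:94178839-94179138: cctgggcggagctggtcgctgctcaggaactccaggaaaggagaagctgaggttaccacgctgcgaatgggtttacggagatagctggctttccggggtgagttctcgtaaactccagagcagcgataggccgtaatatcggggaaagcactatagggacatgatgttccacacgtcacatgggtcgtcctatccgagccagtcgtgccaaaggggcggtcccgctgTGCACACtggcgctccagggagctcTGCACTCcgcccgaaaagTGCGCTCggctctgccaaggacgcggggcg
Mt2 chr8:94172368-94172667: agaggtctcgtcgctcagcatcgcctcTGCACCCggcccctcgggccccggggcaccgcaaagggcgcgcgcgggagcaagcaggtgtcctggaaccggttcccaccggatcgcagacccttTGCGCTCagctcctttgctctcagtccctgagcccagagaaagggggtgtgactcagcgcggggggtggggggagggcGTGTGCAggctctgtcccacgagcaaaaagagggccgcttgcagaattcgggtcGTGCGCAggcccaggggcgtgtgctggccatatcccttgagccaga
Slc30a1 chr1:191906531-191906830: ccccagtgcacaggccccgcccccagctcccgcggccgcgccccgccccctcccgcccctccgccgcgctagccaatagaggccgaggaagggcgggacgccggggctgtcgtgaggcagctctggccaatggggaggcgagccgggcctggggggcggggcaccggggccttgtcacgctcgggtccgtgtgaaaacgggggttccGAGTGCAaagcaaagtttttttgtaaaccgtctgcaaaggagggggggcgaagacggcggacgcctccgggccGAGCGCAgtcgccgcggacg
The Mt1 window held 3 matches, all reading along the plus strand, that begin at bases −23, 3 and 21 from the annotated start, which is counted as base 1. The Mt2 window held 4, at −223, −128, −50 and 5, the last 2 of them on the minus strand, and that of Slc30a1 held 2, at −43 and 31, both on the minus strand. Among all 32851 promoter windows in the table, 25.7% held at least 1 match, 7.11% at least 2, 1.97% at least 3 and 0.517% at least 4. The Slc30a4 window held 3 matches, those of Slc30a5 and Slc39a13 held 1 each, those of Slc30a7 and Slc39a1 held 0, and of the 2 windows listed for Slc39a8 only 1 held a match. A match is a run of letters and does not show that a factor binds there. Bases outside a window were not searched, so these are not counts of all elements of a gene. Mt1 has 3 transcripts in GENCODE M21, and whether most of its RNA begins at the start used here was not examined. The positions therefore hold only for that annotated start, and elements near another start may lie outside the printed window.

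Mt1 fell modestly in TfrcAKO tissue. Mt1 (ENSMUSG00000031765) was at 434, 375 and 318 FPKM in TfrcAKO replicates 1, 2 and 3, against 513, 508 and 470 FPKM in Tfrcfl/fl replicates 1, 2 and 3. Every TfrcAKO sample was below every Tfrcfl/fl sample, and TfrcAKO replicate 3 was the lowest. The means were 376 ± 58.2 FPKM in TfrcAKO and 497 ± 23.1 FPKM in Tfrcfl/fl tissue (SD, n = 3 each). The log2 fold change, given here as TfrcAKO minus Tfrcfl/fl on log2(FPKM + 0.5), was −0.41 with a standard error of 0.14 (95% interval −0.74 to −0.09, limma adjusted p = 0.0467). The call was lost without TfrcAKO replicate 2 (limma adjusted p = 0.108), without Tfrcfl/fl replicate 1 (0.122), 2 (0.134) or 3 (0.0991), and with no filter on low values (0.0708). By level Mt1 ranked 119 to 143 among all genes of the table in TfrcAKO samples and 100 to 111 in Tfrcfl/fl samples.

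Mt2 had a negative fold change that did not pass the test. Mt2 (ENSMUSG00000031762) was at 280, 227 and 192 FPKM in TfrcAKO replicates 1, 2 and 3, against 297, 274 and 269 FPKM in Tfrcfl/fl replicates 1, 2 and 3. TfrcAKO replicate 1 lay inside the Tfrcfl/fl range and the other two TfrcAKO samples lay below it. The log2 fold change was −0.28 ± 0.15 (SE), with a 95% interval of −0.63 to 0.07 and a limma adjusted p of 0.166. Without TfrcAKO replicate 1 the change was −0.42 and the limma adjusted p was 0.0394, and without TfrcAKO replicate 3 they were −0.15 and 0.276. Of the 50-base stretches of Mt2 transcripts 45.9% also occur in other genes' transcripts on either strand, most of all in Gm45774, an antisense gene in GENCODE M21. Gm45774 has no value of its own in the deposited table. Since the strand setting of the counting is not given in the sources used here, the Mt2 values carry that uncertainty; no 50-base stretch of Mt1 transcripts occurred in another gene's transcripts.

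Within TfrcAKO tissue both genes were highest in replicate 1 and lowest in replicate 3. The ratio of Mt1 to Mt2, in which any scaling of a library cancels, was 1.55, 1.65 and 1.66 in TfrcAKO replicates 1, 2 and 3 and 1.73, 1.85 and 1.75 in Tfrcfl/fl replicates 1, 2 and 3. The groups did not overlap for this ratio, which was chosen after its values were seen and was not tested. Together both genes summed to 609 ± 102 FPKM in TfrcAKO and 777 ± 35.3 FPKM in Tfrcfl/fl tissue (SD, n = 3 each). The other metallothioneins, outside the 10, lay far below them. Mt3, known best as the metallothionein of brain, had 3.21, 8.87 and 1.10 FPKM in TfrcAKO replicates 1, 2 and 3, against 14.2, 20.8 and 30.5 FPKM in Tfrcfl/fl replicates 1, 2 and 3. It fell by 2.48 ± 0.62 (SE) on the log2 scale (limma adjusted p = 0.0192), and the adjusted p was 0.0650 without Tfrcfl/fl replicate 2 and 0.0704 without replicate 3. Mt4 was listed at 0 in all 6 samples. Mtf1, the zinc sensor, had 2.47 to 2.83 FPKM in TfrcAKO and 3.09 to 3.52 FPKM in Tfrcfl/fl samples. Its groups did not overlap, as for 60.1% of all tested genes, and it was not called (limma adjusted p = 0.0730). With limma-voom on recovered reads Mtf1 was called lower.

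**Figure D2:**
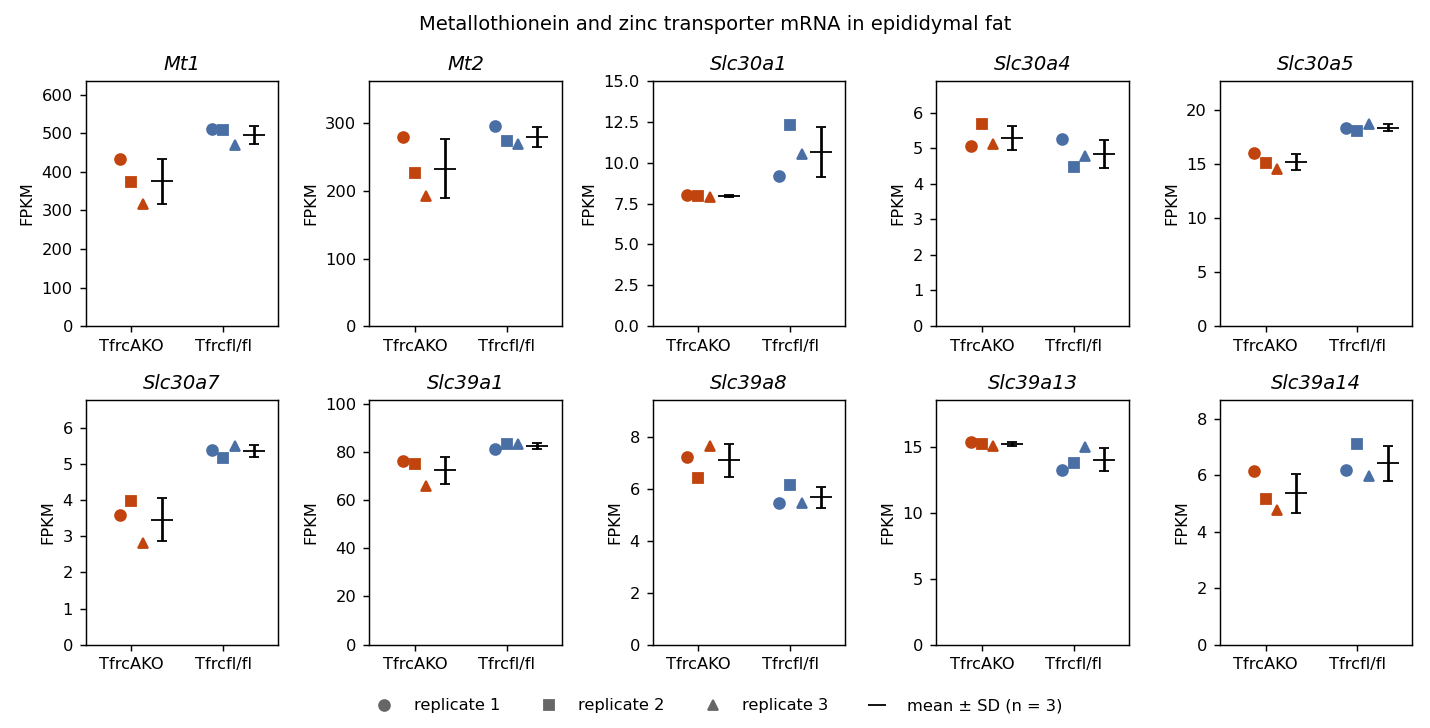
FPKM of each of the 10 genes in the 3 TfrcAKO (orange, left) and 3 Tfrcfl/fl (blue, right) samples; symbols mark the replicate number, black marks the mean ± SD, and each panel has its own axis starting at 0. Mt1, Slc30a1, Slc30a5, Slc30a7 and Slc39a1 lie lower in every TfrcAKO sample, Slc39a8 and Slc39a13 higher, and Mt2, Slc30a4 and Slc39a14 overlap.

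Of the 4 zinc exporters, 3 fell and 1 was not called, beside 21.6% of all tested genes called lower. Slc30a1 is the exporter of the cell surface and, like the metallothioneins, a target of Mtf1 (ENSMUSG00000037434, chromosome 1, 191906767 to 191913247, plus strand). It was at 8.04, 7.97 and 7.94 FPKM in TfrcAKO replicates 1, 2 and 3, against 9.19, 12.3 and 10.5 FPKM in Tfrcfl/fl replicates 1, 2 and 3. The TfrcAKO samples were nearly alike and all below the Tfrcfl/fl samples, which spread more widely. Its log2 fold change was −0.39 ± 0.11 (SE; 95% interval −0.64 to −0.13, limma adjusted p = 0.0273). Its limma adjusted p passed the threshold with all samples but was 0.0557 without TfrcAKO replicate 1, 0.0632 without replicate 2, 0.0712 without Tfrcfl/fl replicate 2, 0.0813 without replicate 3, and 0.0509 with no filter on low values. An antisense gene, 1700034H15Rik, shares 468 exonic bases with Slc30a1 and reached at most 0.210 FPKM.

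Slc30a7 showed the largest difference of the 10. With Slc30a5 and Slc30a6 it loads zinc into the early secretory pathway, where enzymes such as alkaline phosphatase receive the metal. Slc30a7 (ENSMUSG00000054414, chromosome 3, 115938973 to 116007406, minus strand) was at 3.60, 3.99 and 2.82 FPKM in TfrcAKO replicates 1, 2 and 3, against 5.41, 5.18 and 5.51 FPKM in Tfrcfl/fl replicates 1, 2 and 3. All TfrcAKO samples were below all Tfrcfl/fl samples, and TfrcAKO replicate 3 was the lowest. It fell by 0.57 ± 0.12 (SE) on the log2 scale (95% interval −0.87 to −0.28, limma adjusted p = 0.0122), and without Tfrcfl/fl replicate 3 the adjusted p was 0.0507. Of the 50-base stretches of Slc30a7 transcripts 15.3% occur in other genes' transcripts, most of all in the processed pseudogene Gm6649, which has no value in the deposited table.

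Slc30a5 fell by less and with little spread. Slc30a5 (ENSMUSG00000021629, chromosome 13, 100802649 to 100833427, minus strand) was at 16.0, 15.1 and 14.5 FPKM in TfrcAKO replicates 1, 2 and 3, against 18.3, 18.0 and 18.7 FPKM in Tfrcfl/fl replicates 1, 2 and 3. The groups did not overlap. On the log2 scale the change was −0.26 ± 0.07 (SE; 95% interval −0.42 to −0.11, limma adjusted p = 0.0190). The adjusted p was 0.0562, 0.0576 and 0.0773 without Tfrcfl/fl replicate 1, 2 or 3. Slc30a6, the partner with which Slc30a5 forms a complex, is outside the 10 and was not called, with a log2 fold change of −0.13 ± 0.09 (limma adjusted p = 0.266).

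Slc30a4, an exporter of endosomal vesicles known in mice for loading zinc into milk, was not called (ENSMUSG00000005802, chromosome 2, 122681233 to 122702663, minus strand). It was at 5.06, 5.68 and 5.11 FPKM in TfrcAKO replicates 1, 2 and 3, against 5.26, 4.46 and 4.79 FPKM in Tfrcfl/fl replicates 1, 2 and 3. The groups overlapped. Its log2 fold change was 0.12 ± 0.09 (SE), with a 95% interval of −0.10 to 0.34 (limma adjusted p = 0.337). It was 0.07 both without TfrcAKO replicate 2 and without Tfrcfl/fl replicate 2 (limma adjusted p = 0.609 and 0.651). Together the 4 exporters summed to 31.9 ± 1.36 FPKM in TfrcAKO and 39.2 ± 0.949 FPKM in Tfrcfl/fl tissue (SD, n = 3 each). Slc30a5 supplied 47.6% ± 1.38 of that sum in TfrcAKO and 46.8% ± 1.48 in Tfrcfl/fl tissue, with overlapping groups.

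Among the 4 importers, Slc39a8 rose and the other 3 were not called, beside 21.9% of all tested genes called higher. Slc39a8 and Slc39a14 are close relatives that carry zinc, manganese and iron not bound to transferrin. Slc39a8 (ENSMUSG00000053897, chromosome 3, 135825279 to 135888572, plus strand) was at 7.23, 6.39 and 7.65 FPKM in TfrcAKO replicates 1, 2 and 3, against 5.43, 6.12 and 5.44 FPKM in Tfrcfl/fl replicates 1, 2 and 3. The groups did not overlap, although TfrcAKO replicate 2 was close to Tfrcfl/fl replicate 2. The log2 fold change was 0.30 ± 0.10 (SE; 95% interval 0.07 to 0.53, limma adjusted p = 0.0415). This call was the least stable of the 5: the adjusted p was 0.0947 without TfrcAKO replicate 1 and 0.0804 without replicate 3, and 0.118, 0.0610 and 0.130 without Tfrcfl/fl replicate 1, 2 or 3. With no filter on low values it was 0.0735.

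Slc39a14 was not called (ENSMUSG00000022094, chromosome 14, 70303469 to 70351425, minus strand). It was at 6.13, 5.17 and 4.75 FPKM in TfrcAKO replicates 1, 2 and 3, against 6.16, 7.10 and 5.96 FPKM in Tfrcfl/fl replicates 1, 2 and 3. TfrcAKO replicate 1 lay inside the Tfrcfl/fl range. The log2 fold change was −0.24 ± 0.12 (SE), with a 95% interval of −0.52 to 0.03 (limma adjusted p = 0.129). Slc39a14 makes several transcripts, 13 in GENCODE M21, and a value per gene does not separate them.

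Slc39a8 exceeded Slc39a14 in every TfrcAKO sample and was below it in every Tfrcfl/fl sample. The ratio of Slc39a8 to Slc39a14 FPKM was 1.18, 1.24 and 1.61 in TfrcAKO replicates 1, 2 and 3 and 0.881, 0.862 and 0.912 in Tfrcfl/fl replicates 1, 2 and 3. Their sum was 12.4 ± 0.897 FPKM in TfrcAKO and 12.1 ± 1.01 FPKM in Tfrcfl/fl tissue (SD, n = 3 each), with overlapping groups. The ratio was chosen after its values were seen and has no test; 3 samples against 3 allow no exact permutation p below 0.1.

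Slc39a1, a widely expressed importer of the cell surface, was the most abundant transporter of the 10 (ENSMUSG00000052310, chromosome 3, 90248172 to 90253612, plus strand). It was at 76.3, 75.1 and 65.9 FPKM in TfrcAKO replicates 1, 2 and 3, against 81.1, 83.5 and 83.4 FPKM in Tfrcfl/fl replicates 1, 2 and 3. All TfrcAKO samples were below all Tfrcfl/fl samples, with TfrcAKO replicate 3 furthest away. The change still missed the threshold, with a log2 fold change of −0.19 ± 0.08 (SE), a 95% interval of −0.39 to 0.01 and a limma adjusted p of 0.101. Without TfrcAKO replicate 3 the change was −0.13 (limma adjusted p = 0.133). A processed pseudogene, Slc39a1-ps, shares sequence with it (21.8% of its 50-base stretches occur in other genes' transcripts), and the deposited value of that pseudogene reached at most 0.117 FPKM.

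Slc39a13, an importer of the Golgi and vesicle membranes that connective tissue needs, was not called (ENSMUSG00000002105, chromosome 2, 91061791 to 91070417, minus strand). It was at 15.4, 15.2 and 15.0 FPKM in TfrcAKO replicates 1, 2 and 3, against 13.3, 13.8 and 15.0 FPKM in Tfrcfl/fl replicates 1, 2 and 3. The groups were apart by a margin that rounding hides, at 15.04 FPKM in the lowest TfrcAKO and 14.98 FPKM in the highest Tfrcfl/fl sample. The log2 fold change was 0.12 ± 0.07 (SE), with a 95% interval of −0.05 to 0.28 and a limma adjusted p of 0.215. The proteasome gene Psmc3, on the opposite strand, shares 215 exonic bases with it and had 60.9 to 61.4 FPKM in TfrcAKO and 68.3 to 72.8 FPKM in Tfrcfl/fl samples, so some reads of the pair cannot be told apart without strand.

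The order of the 10 levels in FPKM was nearly the same in both groups at the top. Mt1 was highest, then Mt2, then Slc39a1, and their ranges were apart in both groups. In TfrcAKO tissue Slc39a13 (15.2 FPKM) and Slc30a5 (15.2 FPKM) overlapped, whereas in Tfrcfl/fl tissue Slc30a5 (18.3 FPKM) stood above Slc39a13 (14.0 FPKM) without overlap. Slc30a1 followed in both groups at 7.99 and 10.7 FPKM in TfrcAKO and Tfrcfl/fl tissue. Below it, TfrcAKO tissue had Slc39a8, Slc39a14, Slc30a4 and Slc30a7 in that order, and only Slc39a14 and Slc30a4 overlapped as neighbours. Tfrcfl/fl tissue had Slc39a14, Slc39a8, Slc30a7 and Slc30a4, and each of these neighbours overlapped the next.

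Among the zinc transporters outside the 10, the importers held larger differences. Of 10 other ZIP genes 7 were tested and 3 fell, a share to be read beside the 21.6% of all tested genes called lower; the median log2 fold change was −0.21. Slc39a6, which forms a complex with Slc39a10, was at 6.47, 6.01 and 4.92 FPKM in TfrcAKO replicates 1, 2 and 3, against 11.5, 14.6 and 13.4 FPKM in Tfrcfl/fl replicates 1, 2 and 3, and fell by 1.12 ± 0.13 on the log2 scale (SE, limma adjusted p = 0.00370). Slc39a10 was at 8.69, 9.01 and 5.47 FPKM in TfrcAKO replicates 1, 2 and 3, against 12.7, 14.8 and 14.4 FPKM in Tfrcfl/fl replicates 1, 2 and 3. It fell by 0.84 ± 0.18 (SE, limma adjusted p = 0.0128; 0.0537 and 0.0507 without Tfrcfl/fl replicate 2 or 3). Slc39a11 was at 15.8, 13.6 and 8.57 FPKM in TfrcAKO replicates 1, 2 and 3, against 24.3, 25.3 and 27.1 FPKM in Tfrcfl/fl replicates 1, 2 and 3, and fell by 1.03 ± 0.21 (SE, limma adjusted p = 0.0101). All 3 genes were lower in every TfrcAKO sample, and Slc39a6 and Slc39a11 stayed called in each of the 14 alternative fits. Slc39a2, Slc39a7 and Slc39a12 did not pass the filter, with at most 0.613 FPKM in any sample. Overlap with other genes was examined only for the 10, so whether these low values miss reads is not known.

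Summed over all 14 ZIP genes of the table, the levels were 161, 156 and 137 FPKM in TfrcAKO replicates 1, 2 and 3 and 179, 191 and 189 FPKM in Tfrcfl/fl replicates 1, 2 and 3. Slc39a6, Slc39a10 and Slc39a11 together made up 26.2 ± 6.36 FPKM in TfrcAKO and 52.7 ± 3.62 FPKM in Tfrcfl/fl tissue (SD, n = 3 each). These are the ZIP genes called lower in the same comparison, so the direction of their sum was set by that choice. Slc39a1 took a larger share of the ZIP sum in TfrcAKO tissue (47.9% ± 0.448) than in Tfrcfl/fl tissue (44.4% ± 0.805), although its own level was lower. Of the sum over the 4 importers among the 10 it took a smaller share in TfrcAKO tissue (72.3% ± 1.58) than in Tfrcfl/fl tissue (76.0% ± 0.497). The direction of its share thus depends on which genes are summed. None of these sums or shares was tested. Those over all 14 ZIP genes include Slc39a2, Slc39a7 and Slc39a12, whose low values may miss reads. Of the 6 other ZnT genes only 2 were tested and 1 rose (21.9% of all tested genes were called higher). Slc30a9, which exports zinc from mitochondria, was at 11.5, 13.0 and 13.4 FPKM in TfrcAKO replicates 1, 2 and 3, against 10.1, 9.60 and 9.57 FPKM in Tfrcfl/fl replicates 1, 2 and 3. It rose by 0.35 ± 0.08 (SE, limma adjusted p = 0.0128; 0.0517 and 0.0547 without Tfrcfl/fl replicate 2 or 3). The other 4 did not exceed 1.13 FPKM in any sample. All 10 ZnT genes summed to 51.1 ± 2.15 FPKM in TfrcAKO and 55.7 ± 0.788 FPKM in Tfrcfl/fl tissue (SD, n = 3 each).

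**Figure D3:**
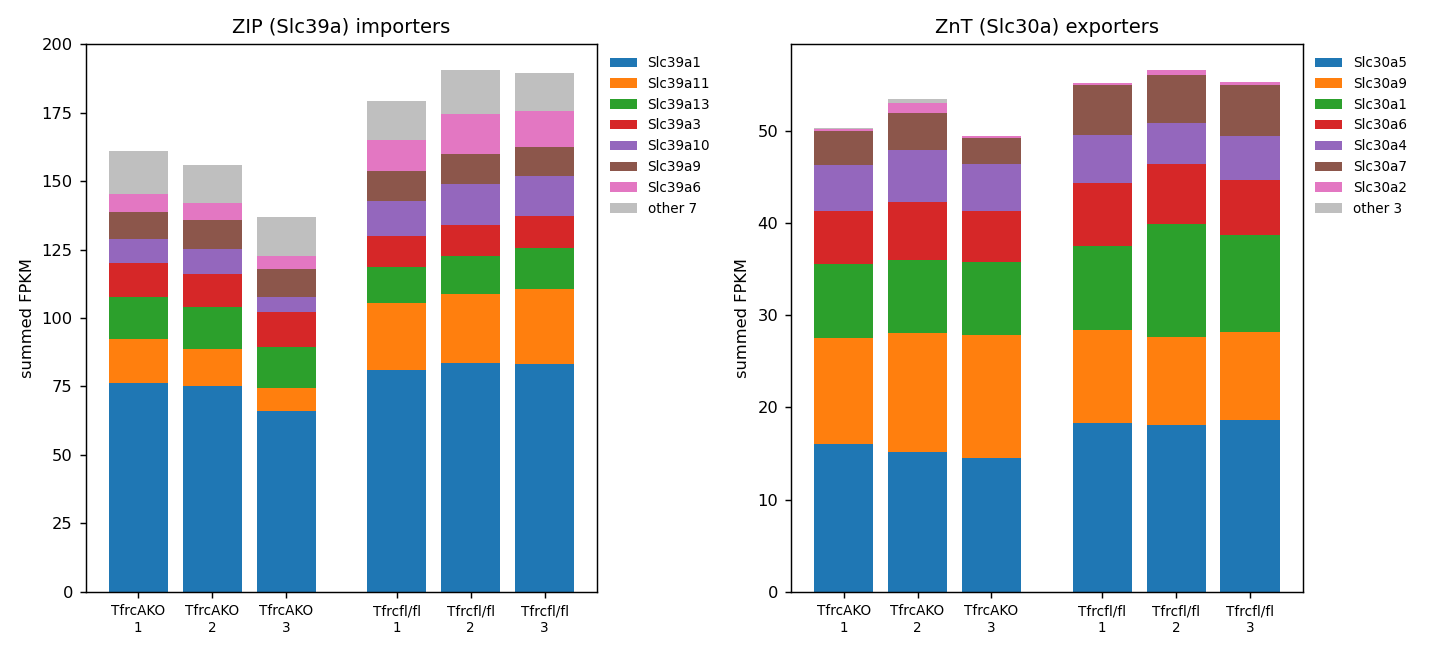
Stacked FPKM of the 14 ZIP genes (left) and 10 ZnT genes (right) in each of the 3 TfrcAKO and 3 Tfrcfl/fl samples, with the 7 most abundant genes of each family in colour and the rest in grey. The ZIP stacks are lower in TfrcAKO samples (137 to 161 FPKM, against 179 to 191 FPKM in Tfrcfl/fl samples). The segments of Slc39a6, Slc39a10 and Slc39a11, the ZIP genes called lower, are thinner there.

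**Figure D4:**
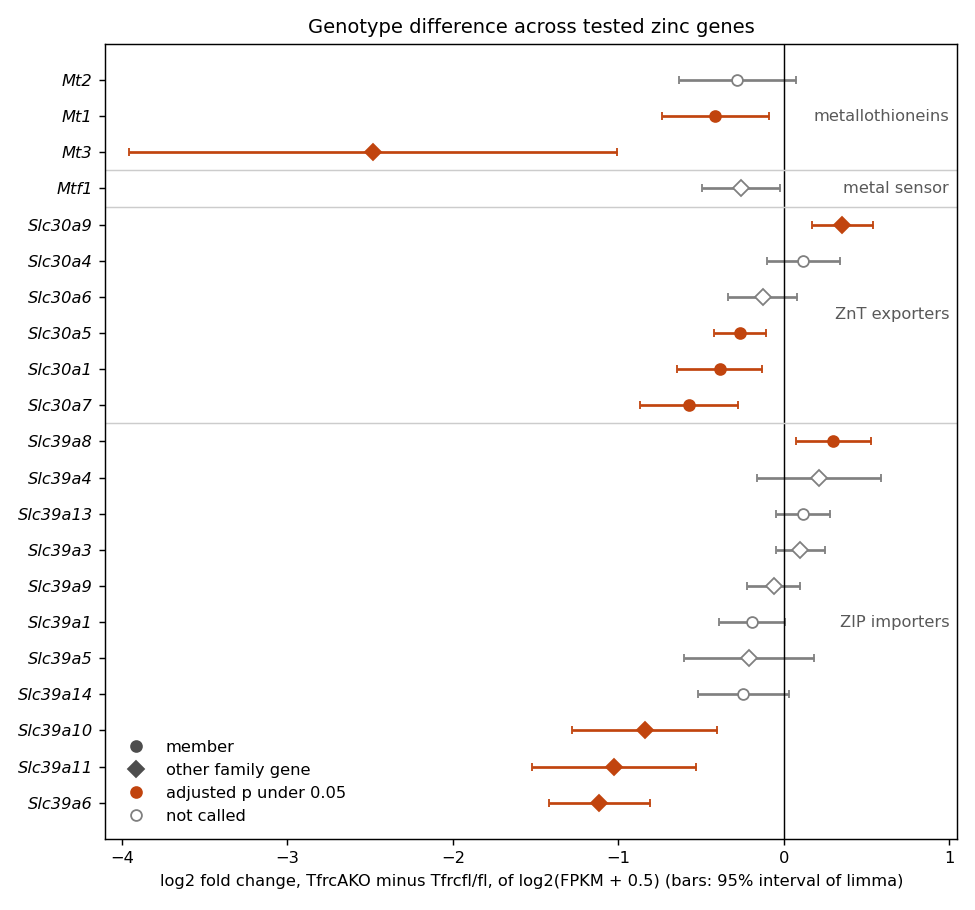
Log2 fold change (TfrcAKO minus Tfrcfl/fl, on log2(FPKM + 0.5)) with its 95% limma interval for every tested metallothionein, Mtf1, ZnT and ZIP gene. Circles are the 10 genes, diamonds other family genes, and filled orange marks an adjusted p under 0.05. Mt3 (−2.48), Slc39a6 (−1.12), Slc39a11 (−1.03) and Slc39a10 (−0.84) lie further from 0 than any of the 10.

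Genes of iron and divalent metal transport share substrates with Slc39a8 and Slc39a14. Of 9 tested 3 rose and 3 fell, with a median log2 fold change of −0.09, beside 21.9% of all tested genes higher and 21.6% lower. Steap4, a metalloreductase, and the iron oxidases Heph and Cp rose by 1.41 ± 0.16, 0.82 ± 0.13 and 0.66 ± 0.12 (SE, limma adjusted p = 0.00370, 0.00549 and 0.00690). Slc11a1, the metal transporter of phagosomes, fell by 1.73 ± 0.33, the iron exporter Slc40a1 by 1.36 ± 0.16 and Steap3, a ferrireductase of endosomes, by 0.69 ± 0.17 (SE, limma adjusted p = 0.00874, 0.00372 and 0.0200). Copper too binds metallothionein, and of 10 tested genes of copper handling 1 rose and 2 fell, with a median of 0.01; both shares are below those among all tested genes (21.9% higher, 21.6% lower). The copper importer Slc31a1 rose by 0.26 ± 0.07 and the export pump Atp7a fell by 1.23 ± 0.28, as did Slc31a2 by 0.55 ± 0.14 (SE, limma adjusted p = 0.0297, 0.0135 and 0.0202). Without Tfrcfl/fl replicate 2 or 3 the copper list had 0 genes higher and 1 lower, and without Tfrcfl/fl replicate 1, TfrcAKO replicate 1 or TfrcAKO replicate 2 it had 0 higher.

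Likeness to Mt1, Mt2, Slc39a14 and Slc39a13 was measured as the root mean square difference of log2(FPKM + 0.5), each gene centred on its own mean, over the 6 samples, among 8241 other genes averaging 5 FPKM or more. The nearest to Mt1 were Med23 (0.029), Cnp (0.031) and Tusc3 (0.032), and 435 genes lay within 0.1. The nearest to Mt2 were Kctd11 (0.039), Fam49a (0.063) and Colec12 (0.065), with 132 within 0.1. Mt1 and Mt2 differed from each other by 0.079, which placed Mt2 at rank 175 among the genes nearest to Mt1 and Mt1 at rank 26 among those nearest to Mt2. For Slc39a14 the nearest were Pdp1, Ampd2 and Fbxw7 (0.030 to 0.035), with 715 genes within 0.1, and for Slc39a13 they were Zfp330, Dtymk and Gopc (0.018 to 0.029), with 896. These distances are descriptions over 6 samples of 2 groups.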

How the data were processed

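Total RNA of 6 epididymal fat samples, extracted with Trizol, was made into libraries with a NEBNext Ultra kit, per the labels' protocols. CASAVA, FastQC, STAR 2.5, HTSeq 0.6.1 and the build mm10 are named, per the submitters' processing notes. The strand setting and annotation release used are not given in these sources. The authors deposited FPKM per gene, per the file headers, and the gene length in bases, which has no unit of expression.

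The product of FPKM and length in kilobases added up to 1000000 for every sample, and 100% of values above 0 were whole multiples of 1 read within 0.01, which gave the reads per gene. Replicates differed by more than counting noise. A gene was tested if 3 or more samples had at least 0.5 FPKM (14383 genes). The log2(FPKM + 0.5) values went into limma 3.58.1 (statmod 1.5.0, R 4.3.3) with genotype as the coefficient, trend and robust moderation, two-sided. P-values were adjusted by Benjamini-Hochberg over all genes tested. A gene is called at an adjusted p under 0.05. Fold changes on this scale understate those of low genes.

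Lists are described by counts and medians. Named were Tfrc, the 10 genes, and from each list every called gene when 5 or fewer were called, else the 4 of smallest p, or, where none was called, the 2 of highest level; further the 3 genes nearest to Mt1, Mt2, Slc39a13 and Slc39a14. Named outside this rule, after their values were seen, were Slc11a1, Steap3, Slc30a6, Cat, Mt4, Slc39a2, Slc39a7 and Slc39a12. So were the markers Insl3, S100a8, Lcn5, Spag11a and Tnp1. The same holds for the genes that overlap a member or share its sequence (Psmc3, 1700034H15Rik, Gm45774, Gm6649 and Slc39a1-ps). Genes and lists were chosen with earlier results of these data known. Alternatives were pseudocounts of 0.1 and 1, a filter at 1 FPKM, no filter, median-of-ratios scaling, the replicate number as a block, leaving out 1 sample or a pair, and limma-voom on recovered reads. Promoters came from RefSeq on GRCm38.p6, with windows for 9 of the 10 genes, and exon overlaps and 50-base stretches from GENCODE M21. Python 3.11.15 was used.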

Additional observations from a re-analysis of the deposited data

How the results depend on the processing

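The fold changes of the 10 genes kept their sign in all 14 alternative fits, but none of the 5 calls among them held in all 14. Mt1 and Slc30a1 lost their call in 7 of the 14, Slc39a8 in 8, Slc30a5 in 5 and Slc30a7 in 1; Mt2 gained one in 1. Over the alternatives Mt1 ranged from −0.52 to −0.28, Slc30a1 from −0.48 to −0.28, Slc30a5 from −0.30 to −0.23, Slc30a7 from −0.67 to −0.45 and Slc39a8 from 0.25 to 0.37 on the log2 scale. With no filter 0 of the 10 were higher and 2 lower. Without both TfrcAKO replicate 3 and Tfrcfl/fl replicate 2 the numbers were 0 and 1. Leaving out 1 sample gave 0 to 1 higher and 0 to 4 lower. In these fits the calls over all tested genes ranged from 1897 to 3063 higher and from 1324 to 3064 lower; the lowest counts came without Tfrcfl/fl replicate 2 (2047 higher, 1324 lower) and without replicate 3 (1897 and 1559). With the replicate number as a block 0 of the 10 were higher and 1 lower (Slc30a7), while 2270 genes were higher and 2311 lower in all. Same-numbered samples deviated from their group means with correlations of −0.237, 0.030 and −0.179 across genes. Different-numbered samples gave −0.083 to 0.235. With 3 samples per group these values cannot show whether the number marks a pairing. Both pseudocounts, the filter at 1 FPKM, median-of-ratios scaling and limma-voom on recovered reads gave 1 higher and 4 lower among the 10, as in the main analysis. The scaling moved the median of all genes by 0.01 on the log2 scale. Each of the 10 genes had at least 614 reads in every sample, so none was near the limit of detection.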

Other observations

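Genes that respond to other known inducers of metallothionein were listed as well, and any link to Mt1 or Mt2 was not tested. Of 12 NRF2 targets, the oxidant defence genes, 10 fell and 1 rose in TfrcAKO tissue, beside 21.6% and 21.9% of all tested genes, with a median log2 fold change of −0.95. Hmox1, which breaks down heme, was at 64.1, 61.2 and 39.4 FPKM in TfrcAKO replicates 1, 2 and 3, against 209, 250 and 236 FPKM in Tfrcfl/fl replicates 1, 2 and 3. Prdx1, a peroxiredoxin, was at 180, 178 and 144 FPKM in TfrcAKO replicates 1, 2 and 3, against 543, 877 and 742 FPKM in Tfrcfl/fl replicates 1, 2 and 3. Prdx1 fell by 2.09 ± 0.19 and Txnrd1, thioredoxin reductase, fell by 1.28 ± 0.12 (SE, limma adjusted p = 0.00343 for each). Srxn1, the repair enzyme of peroxiredoxins, fell by 1.86 ± 0.18 (SE, limma adjusted p = 0.00363). These falls were several times as large on the log2 scale as that of Mt1 (−0.41). Between 9 and 10 of the 12 fell when any sample was left out, and the 1 that rose, Cat, was no longer called without Tfrcfl/fl replicate 3. In the same samples the macrophage marker sum was 1506 to 3385 FPKM in TfrcAKO and 6175 to 7130 FPKM in Tfrcfl/fl tissue, and its part in these values was not tested.

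Of 11 tested glucocorticoid-induced genes 3 rose and none fell, beside 21.9% and 21.6% of all tested genes. The number that rose is thus near the general share. Log2 fold changes over the list ran from −0.39 to 1.18, with a median of 0.28. Zbtb16 rose by 1.18 ± 0.20, Ddit4 by 0.76 ± 0.24 and Per1 by 0.69 ± 0.17 (SE, limma adjusted p = 0.00675, 0.0436 and 0.0183). The number higher was 5 without TfrcAKO replicate 3 and 1 without Tfrcfl/fl replicate 1 or without Tfrcfl/fl replicate 3. Of 11 tested STAT3 and acute phase genes 1 rose and 1 fell, each below those shares of all tested genes, with a median of −0.09. Orm1, an acute phase protein of plasma, was at 204, 232 and 272 FPKM in TfrcAKO replicates 1, 2 and 3, against 85.4, 55.2 and 72.0 FPKM in Tfrcfl/fl replicates 1, 2 and 3, and rose by 1.74 ± 0.18. Bcl3 fell by 0.83 ± 0.10 (SE, limma adjusted p = 0.00363 for Orm1 and 0.00376 for Bcl3). In that list 3 genes fell without TfrcAKO replicate 1 and 2 without TfrcAKO replicate 2, and 2 rose without TfrcAKO replicate 3.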
